A study of Mus musculus with 6 samples.

Results

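Claudins are membrane proteins that form the strands of the tight junction, the belt that seals neighbouring epithelial cells to each other. Some claudins act as paracellular channels for particular ions or for water and others as barriers, and each nephron segment carries its own combination, which sets what can pass between its cells. In the kidney the leaky proximal tubule uses pore-forming claudins, the thick ascending limb uses claudins that let calcium and magnesium through, and the collecting duct uses tighter ones. The 10 claudin genes described here are Cldn1, Cldn2, Cldn3, Cldn4, Cldn5, Cldn7, Cldn8, Cldn10, Cldn16 and Cldn19, found by name in the deposited count table. All 10 were present among its 35275 genes, and all 10 passed the filter on low counts, which left 14883 genes for testing.

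Whole kidneys of wild-type C57Bl/6 mice were collected on day 28 after ischaemia-reperfusion injury, an interruption of the renal blood supply followed by its return, and their poly-A RNA was sequenced. The severe group had 35 min of ischaemia (libraries 13, 14 and 15) and the mild group 20 min (libraries 7, 8 and 9), and values per library are given in that order throughout. Both groups were injured, so every difference is between a longer and a shorter ischaemia, and uninjured kidneys were not analysed here. Neither sex nor age is stated in the labels, and since these name no individual mice, each p-value reflects the spread between samples, which may be technical.

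The libraries held 15240491 to 17730967 gene counts, so a gene with 0 counts could have had up to 0.197 CPM (3 counts, counting error only). That limit uses the plain library totals. It leaves out the scaling factors behind the other CPM values, which ran from 0.943 to 1.17. Umod of the thick ascending limb averaged 4068 ± 974 CPM in severe and 5205 ± 135 CPM in mild kidneys (SD, n = 3 each), and Slc34a1 of the proximal tubule averaged 5100 ± 1672 and 7346 ± 539 CPM in severe and mild kidneys, so the defining kidney markers were present. Severe library 14 stood apart. It had the highest summed level of 18 injured tubule markers (11471 CPM, against 3521 and 6316 CPM in severe libraries 13 and 15 and 2700.1 to 3437 CPM in mild kidneys). It also had the lowest share of mitochondrial reads, 7.48%, against 8.47% to 10.7% in the other libraries. The injured tubule list had 13 of 18 members higher and 1 lower at an unadjusted p under 0.05, and 0 passed after adjustment. Of all tested genes, 15.8% were higher and 7.89% lower at that unadjusted level. Summed proximal tubule markers were at 11914 to 22375 CPM in severe and 24871 to 26168 CPM in mild kidneys, and summed thick ascending limb markers at 4626 to 8220 and 9302 to 9420 CPM in severe and mild kidneys, each lowest in library 14. In every marker list used, 0 genes were at 0 in all libraries.

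The promoters of the 4 claudins with the lowest p-values and the pair of promoters of Cldn10 are shown first. Cldn10 is the member with the lowest p among those with a negative fold change. The genes were picked by p-values from these same data, and none of them passed after adjustment. The windows are the 250 bases before the RefSeq transcription start on GRCm38.p6, read on the strand of the gene. Of the members, 9 of 10, not Cldn8, were matched. Capitals mark matches, on either strand, to any of 4 motifs. The motif of AP-1, a factor of the stress response, is TGACTCA. The E-box that repressors of epithelial genes are known to bind was searched as CACCTG. The promoter elements GC box and TATA box were searched as GGGCGG, bound by Sp1, and as the letters TATAAA. A match on the other strand reads as its reverse complement, and no 2 matches in the 6 windows overlapped.
Cldn4: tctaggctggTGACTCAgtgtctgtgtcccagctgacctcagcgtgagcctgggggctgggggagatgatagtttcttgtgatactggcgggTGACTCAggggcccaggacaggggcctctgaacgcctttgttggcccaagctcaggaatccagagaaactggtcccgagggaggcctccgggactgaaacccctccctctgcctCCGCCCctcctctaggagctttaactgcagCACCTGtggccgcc
Cldn1: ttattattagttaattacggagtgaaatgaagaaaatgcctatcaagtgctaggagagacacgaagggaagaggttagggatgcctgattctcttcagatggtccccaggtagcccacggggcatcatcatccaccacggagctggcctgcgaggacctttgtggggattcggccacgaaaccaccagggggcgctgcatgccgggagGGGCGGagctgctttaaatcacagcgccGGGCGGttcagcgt
Cldn3: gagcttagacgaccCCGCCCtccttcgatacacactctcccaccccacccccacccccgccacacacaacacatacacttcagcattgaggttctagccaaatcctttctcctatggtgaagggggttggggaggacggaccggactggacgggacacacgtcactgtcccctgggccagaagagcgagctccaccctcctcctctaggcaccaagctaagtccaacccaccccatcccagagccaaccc
Cldn7: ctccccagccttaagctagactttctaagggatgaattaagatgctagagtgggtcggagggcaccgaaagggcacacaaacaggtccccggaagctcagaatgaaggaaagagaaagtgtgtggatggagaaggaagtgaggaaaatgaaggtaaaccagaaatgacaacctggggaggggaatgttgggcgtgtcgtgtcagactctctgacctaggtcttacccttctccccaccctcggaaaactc
Cldn10 upstream start: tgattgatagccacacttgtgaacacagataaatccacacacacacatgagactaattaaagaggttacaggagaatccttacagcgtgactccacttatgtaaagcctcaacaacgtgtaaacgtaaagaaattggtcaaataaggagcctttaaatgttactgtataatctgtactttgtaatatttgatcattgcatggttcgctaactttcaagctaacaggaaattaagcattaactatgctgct
Cldn10 downstream start: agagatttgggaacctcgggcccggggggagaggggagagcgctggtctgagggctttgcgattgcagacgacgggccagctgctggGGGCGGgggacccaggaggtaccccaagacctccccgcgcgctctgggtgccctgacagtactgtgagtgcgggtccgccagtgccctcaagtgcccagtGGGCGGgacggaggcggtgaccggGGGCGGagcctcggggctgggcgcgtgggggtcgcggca

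The Cldn4 window (chr5:134946935-134947184, minus strand) held 2 matches to TGACTCA, from 240 to 234 and from 158 to 152 bases before the start, and 4.46% of 32851 mouse promoter windows of this length held at least 1. None of the other 5 printed windows held one. Cldn4 also held 1 match to CACCTG, found in 17.2% of all windows, and 1 to GGGCGG, found in 32.7%. The Cldn1 window (chr16:26371840-26372089, minus strand) held 2 matches to GGGCGG. The Cldn3 window (chr5:134985964-134986213, plus strand) held 1 match to GGGCGG, and the Cldn7 window (chr11:69964529-69964778, plus strand), at the upstream of the 2 starts of the gene, held no match to any of the 4 motifs. The window of its other start (chr11:69965171-69965420, plus strand; letters not shown) held 2 matches to CACCTG and 1 to GGGCGG. Cldn10 also has 2 starts, 67079 bases apart, with windows at chr14:118787621-118787870 and chr14:118854700-118854949 on the plus strand. The upstream window held no match to the 4 motifs and the downstream window 3 to GGGCGG. The counts are per gene and add the transcripts of both starts. The letters TATAAA, found in 12.4% of all windows, were in 0 of the 6. A match describes the letters of the window and says nothing on whether a factor binds there.

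None of the 10 claudins passed in severe against mild kidneys after adjustment over all 14883 genes (edgeR quasi-likelihood test, Benjamini-Hochberg), in a comparison where 0.0134% of tested genes passed. At an unadjusted p under 0.05 there were 4 claudins with a higher level in severe kidneys, Cldn1, Cldn3, Cldn4 and Cldn7, against 15.8% of all tested genes in that direction. At the same unadjusted level 0 claudins were lower, against 7.89% of all genes. The median log2 fold change of the 10 was 0.18, against 0.00 over all tested genes. In 3 of 10 the groups did not overlap, with Cldn3 and Cldn4 higher and Cldn2 lower in every severe library, and groups did not overlap for 34.0% of all tested genes, 17.9% higher and 16.1% lower.

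**Figure D1:**
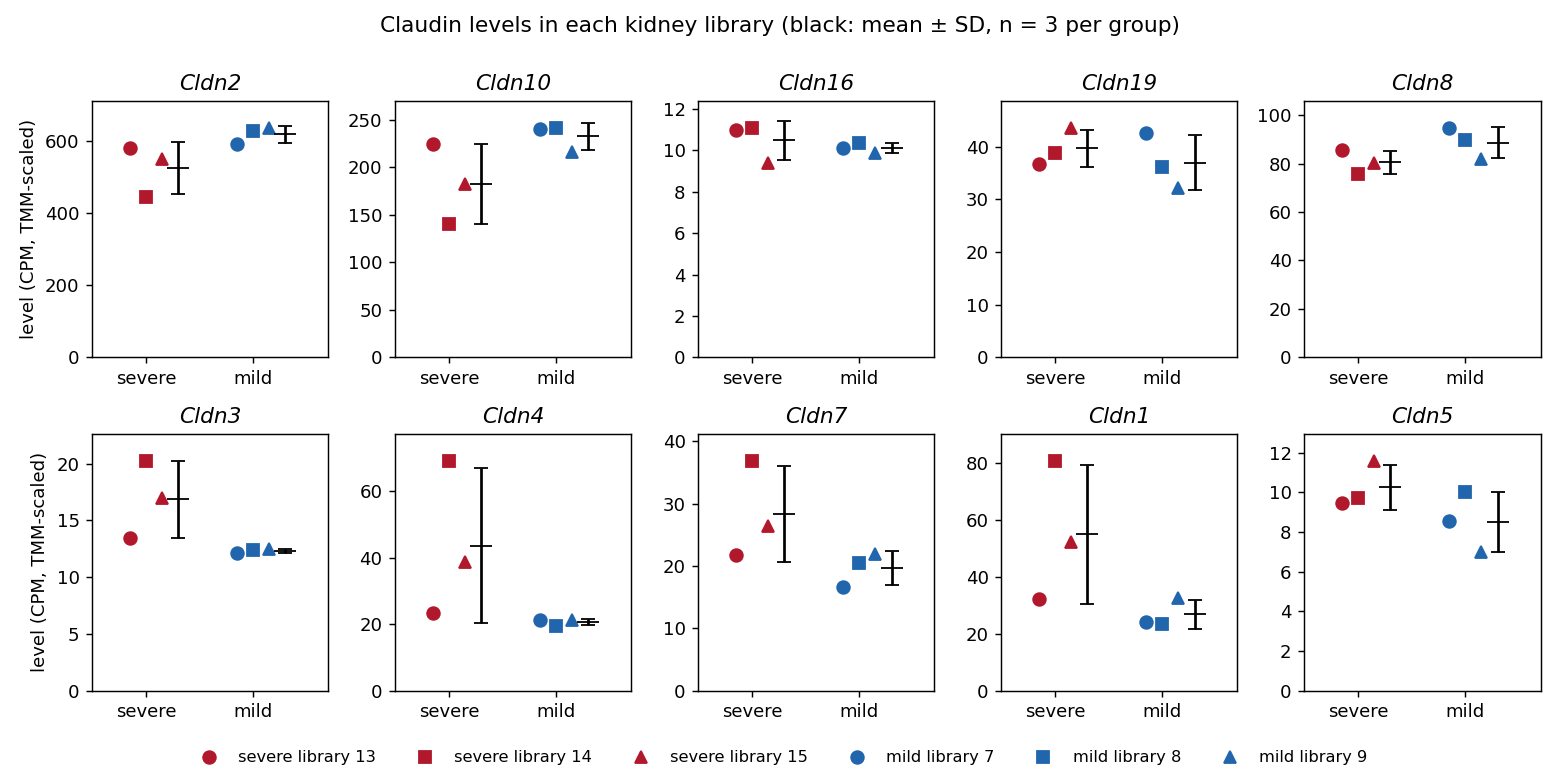
Level of each claudin (CPM, y axis from 0) in the 3 severe and 3 mild libraries, with the mean and SD of each group in black. Severe library 14 is the highest severe library for Cldn1, Cldn3, Cldn4 and Cldn7 and the lowest for Cldn2, Cldn8 and Cldn10.

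The level of each gene was also divided by its length, since only levels per kilobase can be compared between genes. In mild kidneys Cldn2 had the highest level, 203 ± 7.80 CPM per kilobase, followed by Cldn10 at 109 ± 6.52 and Cldn8 at 37.7 ± 2.74 (SD, n = 3). Then came Cldn7 at 14.7 ± 2.03, Cldn4 at 11.4 ± 0.567 and Cldn3 at 9.80 ± 0.148 CPM per kilobase, and from Cldn2 down to Cldn3 no gene overlapped with the next in this order. Cldn3, Cldn19, Cldn16 and Cldn1, between 8.27 and 9.80 CPM per kilobase on average, overlapped from one to the next. Cldn5 was lowest at 6.02 ± 1.06 CPM per kilobase, with no overlap with Cldn1. In severe kidneys the order began with the same 3 genes, Cldn2 at 172 ± 23.6, Cldn10 at 85.7 ± 19.7 and Cldn8 at 34.2 ± 2.05 CPM per kilobase. Cldn4 came next at 24.1 ± 12.9 CPM per kilobase. Its libraries ran from 12.9 to 38.2 CPM per kilobase and overlapped with those of Cldn8 above it and with those of Cldn7 below it, which averaged 21.2 ± 5.76. Cldn1 at 16.9 ± 7.52 CPM per kilobase overlapped with both Cldn7 and Cldn3, which averaged 13.4 ± 2.69. Cldn19, Cldn16 and Cldn5 followed, at 9.52 ± 0.839, 8.95 ± 0.804 and 7.25 ± 0.802 CPM per kilobase.

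As shares of the summed level per kilobase of the 10 genes, Cldn2 and Cldn10 together made up 72.8%, 56.3% and 66.9% in severe kidneys, against 74.2%, 75.1% and 74.9% in mild kidneys. The distal claudins Cldn3, Cldn4, Cldn7 and Cldn8 made up 18.7%, 30.3% and 22.3% in severe kidneys and 17.9%, 17.4% and 17.6% in mild kidneys. Both groups of shares lay outside the mild range in every severe library, with severe library 13 nearest to it. They are parts of the same total, so a lower share of some genes raises the share of the rest. The share of Cldn8 averaged 8.69% in severe and 9.03% in mild kidneys. Cldn4 alone made up 10.1% in severe library 14, and 2.54% to 2.86% in mild kidneys. The summed level per kilobase itself was 376 to 407 CPM per kilobase in severe and 413 to 425 in mild kidneys. No test was made on these shares.

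**Figure D2:**
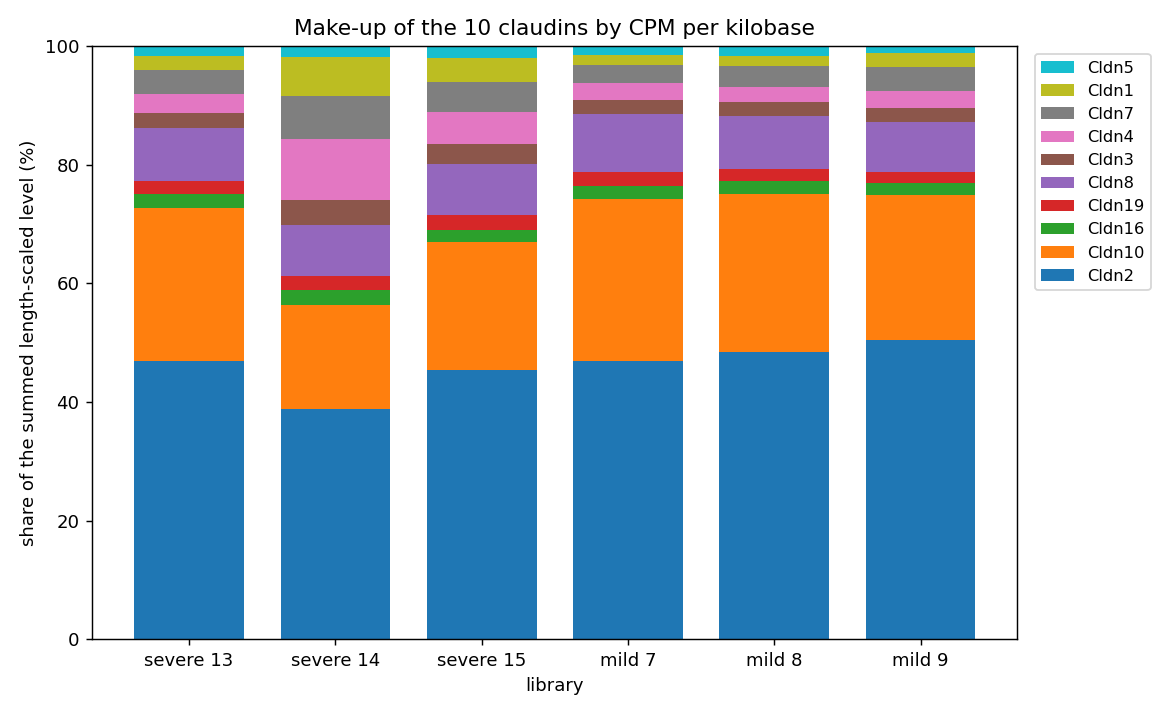
Share of each claudin (%, y axis) in the summed level per kilobase of the 10 genes, 1 bar per library, severe libraries at left. Cldn2 and Cldn10 together make up 56.3% in severe library 14 and 74.2% to 75.1% in mild kidneys.

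Cldn2 forms a channel for cations and water in the proximal tubule and the adjoining thin limb. The gene lies at chrX:139800828-139811386 (plus strand; ENSMUSG00000047230; all gene coordinates are those of the table, mm10). It stood at 581, 443 and 548 CPM in severe kidneys, against 591, 627 and 636 CPM in mild kidneys. All 3 severe libraries lay below the mild ones, library 13 by a small margin. Severe over mild, the log2 fold change was -0.24 ± 0.14 (SE; edgeR adjusted p = 0.325), and -0.13 without severe library 14.

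The 15 proximal tubule markers all had negative log2 fold changes, with a median of -0.51. Of these, 5 were lower at an unadjusted p under 0.05, against 7.89% of all tested genes. Acsm2, with Slc34a1 one of the 2 most abundant, averaged 3542 ± 1187 CPM in severe and 5036 ± 172 CPM in mild kidneys (SD, n = 3 each). In whole-kidney RNA, fewer cells of a type and less RNA per cell cannot be told apart, so Cldn2 was also set against these markers within each library. The log2 level of Cldn2 minus the mean log2 level of the markers was -0.57, -0.12 and -0.48 in severe kidneys, against -0.70, -0.67 and -0.65 in mild kidneys. It was higher in every severe library, by 0.28 on average, so Cldn2 differed less between the groups than these markers did. Such a within-library difference does not depend on the scaling between libraries, and no test was made on it.

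Cldn10 encodes an anion-selective isoform in the proximal tubule and a cation-selective isoform in the thick ascending limb, and gene counts do not separate them. The gene lies at chr14:118787908-118875489 (plus strand; ENSMUSG00000022132). It stood at 224, 140.3 and 183 CPM in severe kidneys, against 239.7, 241 and 216 CPM in mild kidneys. Severe libraries 14 and 15 lay below all mild libraries and library 13 lay within their range. On the log2 scale the difference was -0.35 ± 0.17 (edgeR adjusted p = 0.237). It was -0.19 without severe library 14, where no claudin passed after adjustment. Without severe library 13 it was -0.52 (adjusted p = 0.0307), in a fit where 7.74% of all genes passed in the lower direction. The ratio of Cldn10 to Cldn2 per kilobase was 0.552, 0.452 and 0.477 in severe kidneys and 0.580, 0.550 and 0.487 in mild kidneys, so the groups overlapped.

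Cldn16 and Cldn19 together form the pathway by which the thick ascending limb takes up magnesium and calcium between its cells, and loss of either in humans causes renal wasting of both ions. Cldn16 (ENSMUSG00000038148) lies at chr16:26463135-26482765 (plus strand). It stood at 10.99, 11.1 and 9.41 CPM in severe kidneys, against 10.1, 10.4 and 9.88 CPM in mild kidneys. Cldn19 (ENSMUSG00000066058) lies at chr4:119255414-119262438 (plus strand). It stood at 36.7, 38.8 and 43.5 CPM in severe and 42.5, 36.1 and 32.1 CPM in mild kidneys. The groups overlapped for both genes. The log2 fold change was 0.05 ± 0.12 for Cldn16 (edgeR adjusted p = 0.803) and 0.10 ± 0.12 for Cldn19 (adjusted p = 0.596). The antisense gene Gm12927, which overlaps Cldn19, had 11 counts over all 6 libraries. The ratio of Cldn16 to Cldn19 per kilobase lay between 0.768 and 1.06 in severe and between 0.847 and 1.09 in mild kidneys.

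The 14 markers of the thick ascending limb all had negative log2 fold changes, with a median of -0.42. Of these, 6 were lower at an unadjusted p under 0.05, against 7.89% of all tested genes. The 2 most abundant were Umod (above) and the salt cotransporter gene Slc12a1, at 1013 ± 316 CPM in severe and 1386 ± 97.0 CPM in mild kidneys (SD, n = 3 each). Set against the mean of these markers within each library, the log2 level of Cldn16 was -3.20, -2.52 and -3.26 in severe kidneys, against -3.57, -3.55 and -3.50 in mild kidneys. That of Cldn19 was -1.47, -0.72 and -1.07 in severe and -1.52, -1.76 and -1.81 in mild kidneys. Both claudins were higher relative to the markers in every severe library, by 0.54 for Cldn16 and 0.61 for Cldn19 on average. The same difference for Cldn10 was 0.12, also higher in every severe library, and 0.34 with the median of the markers in place of their mean. Against the proximal tubule markers the difference for Cldn10 was 0.15, with overlapping groups. The level of Cldn10 over that of Cldn16 per kilobase was 11.2, 6.98 and 10.7 in severe and 13.04, 12.8 and 12.1 in mild kidneys, lower in every severe library.

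**Figure D3:**
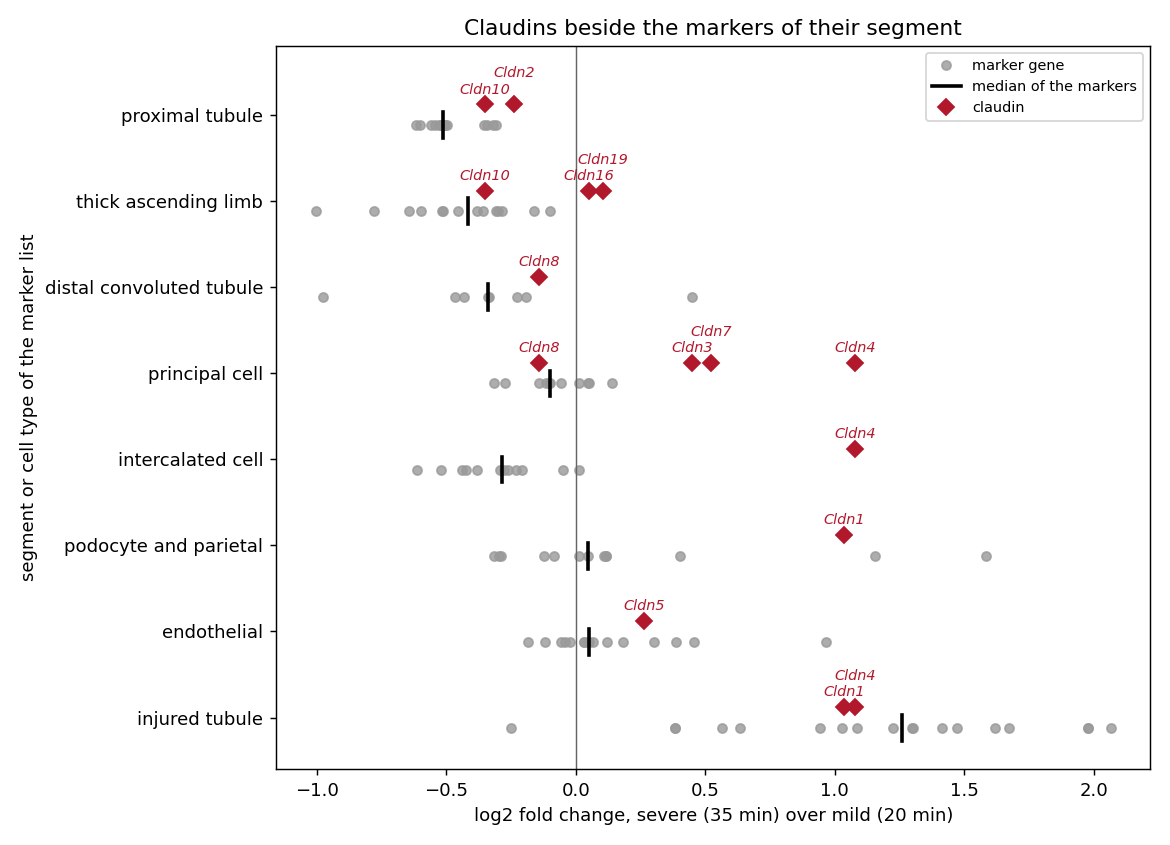
Log2 fold change in severe over mild kidneys (x axis) of each claudin (red diamonds) and of the marker genes of its segment or cell type (grey points, median as a black bar). Cldn16 and Cldn19 lie near 0 beside thick ascending limb markers with a median of -0.42, and Cldn4 lies at 1.08 beside principal cell markers with a median of -0.10.

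Cldn8, Cldn4, Cldn7 and Cldn3 are claudins of the distal nephron and the collecting duct, where Cldn8 is known to recruit Cldn4 to the junction for chloride passage. Cldn8 (ENSMUSG00000050520) lies at chr16:88560828-88563183 (minus strand). It stood at 85.5, 75.9 and 80.3 CPM in severe kidneys, against 94.8, 89.6 and 81.9 CPM in mild kidneys, with overlapping groups. Its log2 fold change was -0.14 ± 0.09 (SE; edgeR adjusted p = 0.330), and it was 0.02 with library totals as the only scaling.

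Cldn4 (ENSMUSG00000047501), a barrier-forming claudin that in the collecting duct also conducts chloride, lies at chr5:134945126-134946934 (minus strand). It stood at 23.3, 69.0 and 38.7 CPM in severe kidneys, against 21.2, 19.5 and 21.4 CPM in mild kidneys. All 3 severe libraries lay above the mild ones, library 13 narrowly and library 14 by more than the whole level of the mild kidneys. The means were 43.7 ± 23.3 CPM in severe and 20.7 ± 1.03 CPM in mild kidneys (SD, n = 3 each). Nearly all of the spread was among severe kidneys, and on the log2 scale the SD was larger there for 73.0% of all tested genes. For Cldn4 the fitted log2 fold change was 1.08 ± 0.34 (SE, edgeR adjusted p = 0.135). Without severe library 14 it was 0.58 (adjusted p = 0.171). Without severe library 13 it was 1.39 (adjusted p = 0.00721), in a fit where 13.8% of all genes passed in the higher direction.

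Cldn7 (ENSMUSG00000018569) lies at chr11:69964779-69967885 (plus strand) and gives a claudin of the basolateral membrane as well as the junction. It stood at 21.7, 36.7 and 26.4 CPM in severe kidneys, against 16.7, 20.4 and 22.0 CPM in mild kidneys. Severe libraries 14 and 15 were above all mild libraries and library 13 was within their range. Its log2 fold change was 0.52 ± 0.20 (edgeR adjusted p = 0.176). It was 0.29 without severe library 14, where no claudin passed after adjustment. Without severe library 13 it was 0.69 (adjusted p = 0.0252), in a fit where 13.8% of all genes passed in the higher direction.

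Cldn3 (ENSMUSG00000070473), a sealing claudin, lies at chr5:134986214-134987472 (plus strand), 39280 bases from Cldn4. It stood at 13.4, 20.2 and 17.0 CPM in severe kidneys, against 12.1, 12.4 and 12.5 CPM in mild kidneys. All severe libraries were above the narrow range of the mild ones. Severe over mild, the log2 fold change was 0.45 ± 0.15 (edgeR adjusted p = 0.151), and 0.30 without severe library 14 (adjusted p = 0.208). Without severe library 13 it was 0.60 (adjusted p = 0.0166), in a fit where 13.8% of all genes passed in the higher direction. The antisense gene Wbscr25 overlaps Cldn3 and had 2 counts over all 6 libraries.

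Markers of principal cells, the cells of the collecting duct that take up water and sodium, had a median log2 fold change of -0.10 over 11 tested genes. Of these, 0 were at an unadjusted p under 0.05 in either direction, against 23.7% of all tested genes. Aqp2 averaged 159 ± 35.1 CPM in severe and 176 ± 45.2 CPM in mild kidneys, and Hsd11b2 averaged 162 ± 11.2 and 173 ± 13.9 CPM in severe and mild kidneys (SD, n = 3 each). Relative to the mean of these markers, the log2 level of Cldn4 was -0.60, 1.33 and 0.34 in severe kidneys, against -0.77, -0.69 and -0.52 in mild kidneys. Libraries 14 and 15 lay above the mild range and library 13 within it. The mean difference between the groups was 1.02 for Cldn4, 0.58 for Cldn7 and 0.51 for Cldn3, with overlapping groups for all 3. For Cldn8 it was -0.06, and 0.13 with the median of the markers in place of their mean. The ratio of Cldn4 to Cldn8 per kilobase was 0.355, 1.18 and 0.627 in severe kidneys and 0.291, 0.284 and 0.340 in mild kidneys, higher in every severe library.

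Set against intercalated cell markers, the acid-base cells of the same duct, the log2 level of Cldn4 was higher in every severe library, by 1.26 on average, beside a median log2 fold change of -0.28 for these 12 markers. At an unadjusted p under 0.05, 0 intercalated cell markers were higher and 4 lower, against 15.8% and 7.89% of all tested genes. Of the 2 most abundant, Atp6v1b1 averaged 99.5 ± 19.9 CPM in severe and 122 ± 9.03 CPM in mild kidneys. Rhcg averaged 91.6 ± 19.5 and 124 ± 8.56 CPM in severe and mild kidneys (SD, n = 3 each). The 8 distal convoluted tubule markers had a median of -0.34. At an unadjusted p under 0.05, 1 of them was higher and 2 lower, against 15.8% and 7.89% of all tested genes. Their most abundant were Slc12a3, at 656 ± 176 CPM in severe and 904 ± 63.3 CPM in mild kidneys, and Calb1, at 398 ± 115 and 502 ± 17.3 CPM in severe and mild kidneys. Cldn8 minus the mean of those markers differed by 0.21 between severe and mild kidneys, with overlapping groups.

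Cldn1 is a claudin of the parietal epithelium that lines the capsule of the glomerulus, and is known as the main barrier claudin of the skin. The gene lies at chr16:26356642-26371841 (minus strand; ENSMUSG00000022512). It stood at 32.1, 80.7 and 52.2 CPM in severe kidneys, against 24.3, 23.6 and 32.6 CPM in mild kidneys. Severe libraries 14 and 15 were above all mild libraries, while library 13 was just under mild library 9. The means were 55.0 ± 24.4 CPM in severe and 26.8 ± 5.00 CPM in mild kidneys (SD, n = 3 each). On the log2 scale the difference was 1.04 ± 0.31 (SE; edgeR adjusted p = 0.122), the lowest adjusted p of the 10. It was 0.65 without severe library 14 (adjusted p = 0.262). Without severe library 13 it was 1.32 (adjusted p = 0.00708), in a fit where 13.8% of all genes passed in the higher direction.

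The 13 podocyte and parietal markers had a median log2 fold change of 0.05. At an unadjusted p under 0.05, 3 were higher and 1 lower, against 15.8% and 7.89% of all tested genes. Podxl averaged 214 ± 31.4 CPM in severe and 234 ± 4.87 CPM in mild kidneys, and Clic5 averaged 103 ± 17.4 and 128 ± 7.90 CPM in severe and mild kidneys (SD, n = 3 each). Relative to the mean of this list the log2 level of Cldn1 was -0.16, 0.99 and 0.41 in severe kidneys, against -0.45, -0.58 and -0.11 in mild kidneys.

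Cldn1 and Cldn4 were also set against the 18 markers of injured tubule, whose median log2 fold change was 1.26. Spp1 (osteopontin) averaged 4973 ± 3027 CPM in severe and 1866 ± 284 CPM in mild kidneys (SD, n = 3 each). Clusterin (Clu) averaged 826 ± 379 and 429 ± 65.5 CPM in severe and mild kidneys. Relative to these markers the log2 level of Cldn4 was -0.57, -0.65 and -0.63 in severe kidneys, against -0.57, -0.46 and -0.66 in mild kidneys. That of Cldn1 was -0.11, -0.42 and -0.20 in severe and -0.37, -0.18 and -0.06 in mild kidneys. The groups overlapped for both, and the mean differences were -0.05 for Cldn4 and -0.04 for Cldn1. The part of the injured tubule in the levels of Cldn1 and Cldn4 was not tested.

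**Figure D4:**
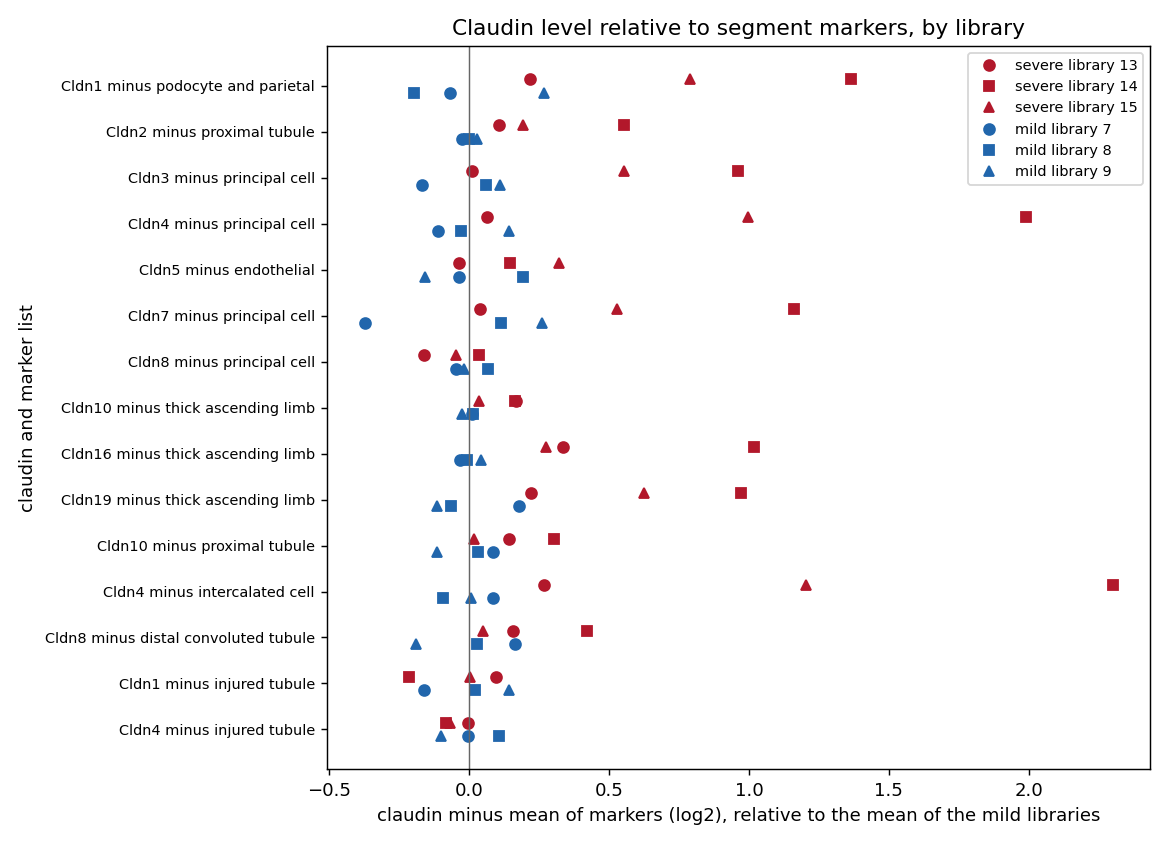
Log2 level of each claudin minus the mean log2 level of the markers of a segment or cell type, in each library, with the mean of the mild libraries set to 0 (x axis). Severe libraries lie above all mild libraries for Cldn10, Cldn16 and Cldn19 against thick ascending limb markers. They overlap with mild libraries for Cldn1 and Cldn4 against injured tubule markers.

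Cldn5 is the claudin of the endothelium, where it limits leakage of small molecules. The gene lies at chr16:18776847-18778260 (plus strand; ENSMUSG00000041378). It stood at 9.48, 9.73 and 11.6 CPM in severe kidneys, against 8.55, 10.0006 and 7.0004 CPM in mild kidneys, with overlapping groups. The fitted log2 fold change was 0.27 ± 0.17 (SE; edgeR adjusted p = 0.336). The 16 endothelial markers had a median of 0.05, with 3 higher at an unadjusted p under 0.05, against 15.8% of all tested genes. Plvap averaged 190 ± 18.7 CPM in severe and 181 ± 10.4 CPM in mild kidneys, and endoglin (Eng) averaged 117 ± 4.41 and 89.2 ± 7.46 CPM in severe and mild kidneys (SD, n = 3 each). Cldn5 minus the mean of these markers differed by 0.14 between severe and mild kidneys, with overlapping groups.

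For the members not yet given without severe library 14, the log2 fold change there was -0.10 for Cldn8, 0.30 for Cldn5, 0.01 for Cldn16 and 0.12 for Cldn19. When severe library 13 was left out, 5 claudins passed after adjustment over all genes, Cldn1, Cldn3, Cldn4 and Cldn7 with a higher level in severe kidneys and Cldn10 with a lower one. In that fit 13.8% of all genes passed in the higher direction, 7.74% in the lower and 21.5% in either. With DESeq2 on all 6 libraries, 2 passed, Cldn1 and Cldn4, both higher, against 6.88% of all genes in that direction, 0.914% in the lower one and 7.79% in either. With limma-voom and sample quality weights 6 passed, Cldn1, Cldn3, Cldn4, Cldn5 and Cldn7 higher and Cldn10 lower, against 18.2% of all genes in the higher direction, 15.7% in the lower and 33.9% in either.

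**Figure D5:**
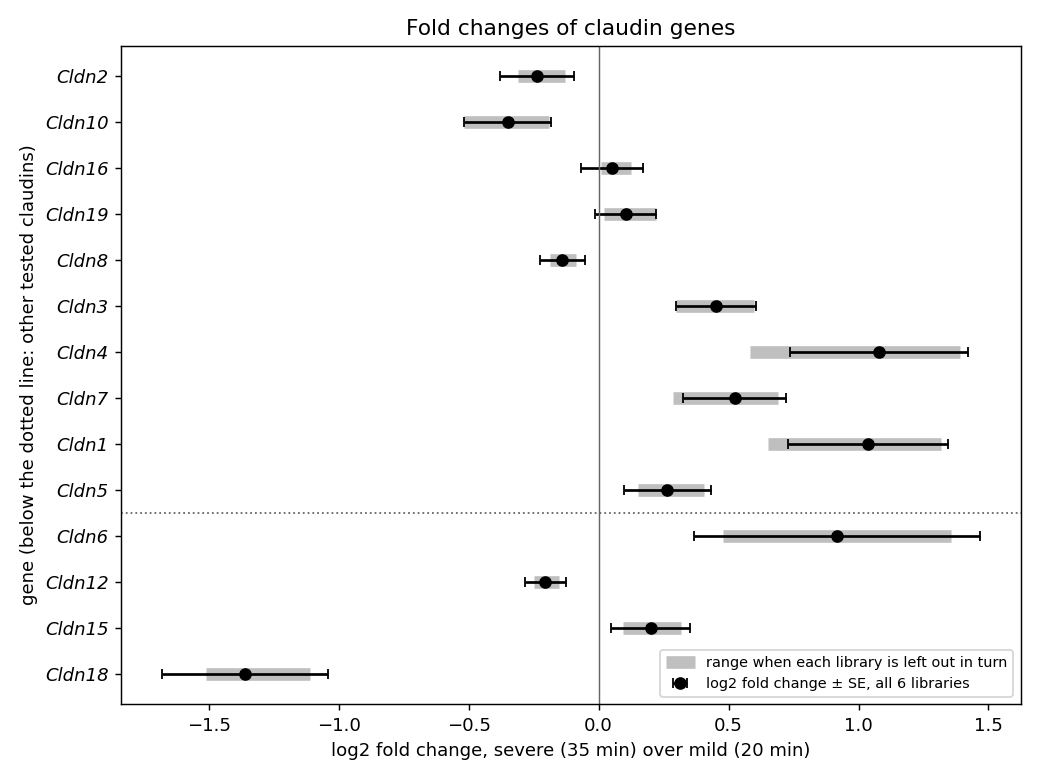
Log2 fold change in severe over mild kidneys with its SE (x axis) for the 10 claudins and, under the dotted line, 4 other tested claudins; grey bars give the range when each library is left out in turn. Cldn4 runs from 0.58 to 1.39 and Cldn1 from 0.65 to 1.32, while Cldn16 stays between 0.01 and 0.12.

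Of 24 further claudin symbols looked up, 14 were in the table and 5 passed the filter, and none of these 5 passed the test, with 2 lower and 0 higher at an unadjusted p under 0.05, against 7.89% and 15.8% of all tested genes. Cldn18, known from stomach and lung, stood at 0.756, 0.394 and 0.738 CPM in severe kidneys, against 1.72, 1.497 and 1.65 CPM in mild kidneys. It was lower in every severe library, with 7 to 13 counts per severe and 24 to 25 per mild library (log2 fold change -1.36 ± 0.32, SE; edgeR adjusted p = 0.0901). Cldn18 passed in 3 of 15 alternatives. One was the fit without severe library 13, at -1.51 (edgeR adjusted p = 0.0305), where 7.74% of all genes passed in that direction. Cldn12, which is widely expressed, stood at -0.20 ± 0.08 (adjusted p = 0.181), also lower in every severe library. Cldn15, a cation channel of the intestine, stood at 0.20 ± 0.15, and Cldn6, a claudin of embryonic epithelia, at 0.92 ± 0.55, both with overlapping groups. The gene listed as Cldn25 is named Cldnd1 in GENCODE M21 and stood at 0.01 ± 0.09. Cldn14, which in the thick ascending limb blocks the Cldn16 and Cldn19 pathway, had 2, 5 and 8 counts in severe kidneys, against 2, 3 and 0 in mild kidneys, too few for a test.

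Claudins are anchored by scaffold and polarity proteins, and all 29 genes of such partners were tested. None passed after adjustment. At an unadjusted p under 0.05, 3 of 29 were higher and 5 lower, against 15.8% and 7.89% of all tested genes in those directions. The median log2 fold change was -0.04, against 0.00 over all genes. Tjp1, the scaffold ZO-1, stood at 73.3, 97.7 and 74.0 CPM in severe kidneys, against 68.2, 66.7 and 57.3 CPM in mild kidneys, higher in every severe library (log2 fold change 0.35 ± 0.13, SE; edgeR adjusted p = 0.173). The other two with positive values and the lowest p were Amotl2 of the angiomotin family at 0.32 ± 0.12 and Ybx3, a transcription factor bound by ZO-1, at 0.32 ± 0.12. Those with negative values were the polarity genes Inadl (PATJ) at -0.28 ± 0.09, Crb3 at -0.28 ± 0.09 and Prkcz at -0.43 ± 0.18. The strand proteins occludin (Ocln) at -0.06 ± 0.10 and tricellulin (Marveld2) at -0.06 ± 0.12 had overlapping groups, and both turned to positive values with library totals as the scaling (0.10 and 0.12).

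Of 20 genes known to act on claudins, 0 passed after adjustment, 4 were higher and 5 lower at an unadjusted p under 0.05, against 15.8% and 7.89% of all tested genes, and the median log2 fold change was -0.16. The calcium-sensing receptor gene Casr, which controls calcium passage in the thick ascending limb, stood at 36.8, 26.6 and 32.2 CPM in severe kidneys, against 45.4, 48.4 and 42.3 CPM in mild kidneys, with no overlap (log2 fold change -0.51 ± 0.12, SE; edgeR adjusted p = 0.0950). Casr is also among the 14 thick ascending limb markers above, whose median log2 fold change was -0.42. Klhl3 and Wnk4, of the kinase pathway that sets distal salt transport, had log2 fold changes of -0.59 ± 0.20 and -0.24 ± 0.18. The epithelial factor Grhl2 stood at 0.26 ± 0.19, and the repressor of epithelial genes Zeb2 at 1.06 ± 0.25 (adjusted p = 0.0919), higher in every severe library. The others higher at an unadjusted p under 0.05 were Snai1 at 1.28 ± 0.27, Snai2 at 0.94 ± 0.35 and Zeb1 at 0.50 ± 0.19. Groups overlapped for Snai2 and Zeb1. Zeb2 is also expressed in stromal and immune cells. The summed level of 6 fibroblast markers was 865, 2874 and 1509 CPM in severe kidneys, against 414 to 533 CPM in mild kidneys. That of 8 leukocyte markers was 404, 758 and 467 CPM in severe and 202 to 242 CPM in mild kidneys, and their part in the level of Zeb2 was not tested.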

How the data were processed

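The deposited table holds raw read counts per Ensembl gene, made by the authors, with gene lengths in bases. Per the submitters' processing notes, mm10, TopHat2 2.0.12, Bowtie2 2.2.3 and HTSeq 0.6.1 were used. Which strand was counted is not given in the sources used here, so reads of overlapping antisense genes cannot be told apart. Column names gave the group and matched no single sample title, so libraries were unpaired replicates.

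Counts were filtered with filterByExpr, scaled by TMM and tested with edgeR 4.0.16 (quasi-likelihood, robust) in R 4.3.3. Adjustment was by Benjamini-Hochberg across the tested genes, at a threshold of 0.05. CPM use the TMM-scaled library size. Log2 levels for marker differences use a prior count of 2. Each SE came from the log2 fold change and its F. No pair of replicates looked like a repeated library (chi-square per degree of freedom 3.67 to 70.0). The method was also run on simulated counts, drawn gene by gene with no shift across a whole library. That run gives no measure of power in these data.

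The members and lists were chosen with earlier results of these data known. Named genes were all members, every other tested claudin, Tjp1, Ocln and Marveld2 with the 3 partners of each sign with the smallest p, 6 regulators (1 of them is not reported here), the 2 most abundant markers per list, and the 3 genes closest in pattern to the member with the smallest p. Snai1, Snai2 and Zeb1 were named in addition, after their values were seen. The fibroblast, leukocyte and erythroid lists are given as sums. Alternatives were RLE, upper-quartile and no scaling factors, no filter, at least 1 CPM in 3 libraries, limma-voom 3.58.1 with and without quality weights, DESeq2 1.42.0, non-robust dispersion, and each library left out. Promoter sequences are from RefSeq (GRCm38.p6).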

Additional observations from a re-analysis of the deposited data

How the results depend on the processing

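No paired analysis was possible because the labels number the samples without a number shared between the groups. Over 15 alternatives for each of 10 claudins, 148 of 150 log2 fold changes kept their sign. The exceptions were Cldn8 with library totals (0.0245) and Cldn16 with quality weights (-0.0800). Library totals moved the median log2 fold change of all genes by 0.17.

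The count of claudins past the threshold was 0 in all 6 libraries, 2 with DESeq2, 6 with quality weights (where 33.9% of all genes passed), and 0 to 5 when a library was left out (5 without severe library 13). For the 29 junction partners it was 0, and 9 with quality weights (against 33.9% of all genes). It was 0 to 5 when a library was left out (5 without severe library 13, where 21.5% of all genes passed). For all genes it was 2, against 1 with library totals, 146 without a filter, 1160 with DESeq2, 5041 with quality weights and 0 to 3269 when a library was left out (3269 without severe library 13, 501 without severe library 14). The causes were not tested.

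Other values that turned sign were Cldn25 without severe library 15 (-0.02) or mild library 9 (its range over left-out libraries was -0.0439 to 0.0810), Ocln with library totals (0.10), quality weights (0.0347), without severe library 14 (0.0018) or mild library 7 (range -0.117 to 0.0238), and Marveld2 with library totals (0.12), without severe library 13 (0.00056) or mild library 8 (range -0.152 to 0.0383). Of 15 marker differences, the median of the markers moved Cldn10 minus thick ascending limb markers to 0.34 and Cldn8 minus principal cell markers to 0.13, by more than the spread between replicates. Depth limits Cldn18 and Cldn14, with few counts per library.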

Other observations

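The region of chromosome 5 that holds Cldn3 and Cldn4 has other expressed genes around them. Wbscr27 lies 2489 bases from Cldn4, and stood at 27.3, 25.3 and 27.3 CPM in severe kidneys, against 28.6, 22.9 and 30.7 CPM in mild kidneys (log2 fold change -0.04 ± 0.12, SE). Abhd11, 21680 bases from Cldn3, stood at -0.26 ± 0.12. Stx1a, 36010 bases from Cldn3, stood at 1.86, 5.85 and 4.49 CPM in severe and 1.999, 2.04 and 2.47 CPM in mild kidneys, with overlapping groups. On chromosome 16, Cldn1 and Cldn16 lie 91294 bases apart in opposite directions, and their log2 fold changes were 1.04 and 0.05. These genes were chosen by their place within 100000 bases of a member, and those named were picked after their values were seen.

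The 3 genes whose log2 levels over the 6 libraries lay closest to those of Cldn1, each centred on its own mean, were Aldh18a1, AF251705 and Clu, with root mean square differences of 0.051, 0.057 and 0.058. Aldh18a1, an enzyme of proline synthesis, stood at 6.46, 14.9 and 9.96 CPM in severe kidneys, against 4.89, 4.49 and 6.18 CPM in mild kidneys. Clu stood at 472, 1226 and 779 CPM in severe and 399.8, 383 and 504 CPM in mild kidneys. AF251705 stood at 4.30, 11.5 and 6.76 CPM in severe and 3.10, 2.93 and 4.12 CPM in mild kidneys. The likeness is a description over 6 libraries, taken from a search through 14883 genes.

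The erythroid list summed to 51.3, 7.26 and 6.89 CPM in severe kidneys, against 1.92 to 11.3 CPM in mild kidneys, highest in severe library 13. Without that library 5 claudins passed the threshold, in a fit where 21.5% of all genes passed. The part of the erythroid genes in that result was not tested.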
